A study of Mus musculus with 32 samples.

Results

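Motile cilium genes of the ependyma, the epithelium that lines the central canal, were followed in mouse spinal cord from 3 to 35 days after injury. The set was given as 37 gene symbols, and the count table held 23420 symbols. Of the 37, 28 were found by their current symbol and 7 axonemal dynein heavy chains under an older one (Dnahc1 for Dnah1, and likewise Dnah2, Dnah5, Dnah6, Dnah9, Dnah10 and Dnah11), which gave 35 genes. Dnah3 and Dnah12 were not analysed here. All 35 genes passed the filter on low counts. The 3 transcription factors were Foxj1, Rfx2 and Rfx3, and the other 32 genes encode parts of the ciliary shaft, factors that build it, or ciliary and ependymal proteins of other kinds.

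A motile cilium is built on a ring of doublet microtubules, the axoneme. Outer and inner dynein arms on the doublets drive the beat, and radial spokes and a central pair of microtubules regulate it. FOXJ1 and the RFX factors switch on the genes of this structure, RFX factors through a promoter element called the X-box. Ependymal cells carry motile cilia into the cerebrospinal fluid of the central canal, and some of these cells divide after spinal cord injury.

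The study sequenced RNA of cord segments around the lesion in 32 libraries from C57BL/6J mice of 8 to 12 weeks. Sham cord was taken at 3 and 35 days (3 libraries each). Injured cord labelled SCI+Ctrl and SCI+Gsx1 was taken at 3 days (3 libraries each), 14 days (3 each) and 35 days (4 each), and injured cord labelled SCI+Nkx6.1 at 3 and 35 days (3 each). Gsx1 and Nkx6.1 are homeodomain transcription factors of neural progenitors in the developing cord, and the series asks what they do after injury. The labels used here do not say how they were delivered, what the SCI+Ctrl cords received, which promoter drove the factors, or whether a library came from 1 animal. In bulk tissue, fewer cells of a type and less RNA per cell cannot be told apart.

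Total counts ran from 10823632 to 19512107 per library. Levels are given as CPM, a gene's count scaled to a common library total, with library sizes adjusted by the TMM method. The levels of the 2 named factors did not check the labels. Gsx1 lay between 0.0600 and 0.665 CPM in the libraries labelled SCI+Gsx1 and overlapped with SCI+Ctrl at each time. Nkx6-1 overlapped with SCI+Ctrl at 35 days and was lower at 3 days, at 3.62 to 6.11 CPM in SCI+Nkx6.1 against 7.00 to 8.98 CPM. Xist, which is transcribed from the inactive X chromosome of females, exceeded 100 CPM in 7 libraries: sham replicates 1 and 2 and SCI+Ctrl replicate 1 at 3 days, and sham replicate 3, SCI+Ctrl replicates 1 and 4 and SCI+Nkx6.1 replicate 2 at 35 days. In 2 of these, sham replicate 1 at 3 days and SCI+Ctrl replicate 4 at 35 days, the Y-linked gene Ddx3y was also present, at 19.1 and 32.1 CPM. Counts of called genes are therefore also given without these libraries where that changes them. Neuronal markers were present: 12 of them, with Snap25, Syt1 and Rbfox3 among them, summed to 10416 to 11153 CPM in sham at 3 days. That sum shows neuronal RNA and does not by itself identify the tissue as cord.

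The X-box was read in the promoters because the RFX genes are in the set. RefSeq (GRCm38.p6) gave promoter windows of 300 bases, from 250 before to 50 after a start, for 31 of the 35 genes. Those not matched were Foxj1, Rsph1, Rsph4a and Armc4. The X-box was searched as GTTNCC, 0 to 3 spacer bases and GGNAAC, a pattern that reads the same on both strands. An exact match was found in 1 of the 31 genes, Pifo (3.23%), and in 0.936% of the 27025 genes with a window. With 1 mismatch allowed among the 10 fixed bases, a setting chosen after the exact search had been seen, 13 of the 31 (41.9%) held one, against 6.15% of all genes. The forkhead core TGTTTAC, searched on both strands, was in 1 of the 31, Mlf1 (3.23%), against 4.05% of all genes. A match describes letters and does not show a site in use. The sites below show the exact match in Pifo and that of Ccdc153, with the largest change over time. They also show those of Enkur, Rfx2 and Zmynd10, the 3 of these 13 genes that rose at 35 days. Capitals mark the fixed X-box bases that matched.
Pifo, chr3:106001504-106001517, minus strand: GTTcCCttGGcAAC
Enkur, chr2:21205364-21205377, minus strand: GTTtCCttaGcAAC
Rfx2, chr17:56831110-56831124, minus strand: GTTgCCgggcGcAAC
Zmynd10, chr9:107547304-107547317, plus strand: GTTtCCatGGcgAC
Ccdc153, chr9:44240525-44240538, plus strand: GTTgCCtgGacAAC
The Enkur site began 12 bases before the start of transcription, the Pifo site 20, the Rfx2 site 116 and the Ccdc153 site 152, and the Zmynd10 site began at the start itself. The Pifo site is in its second listed window, at a start inside the gene. The whole windows of Enkur and Rfx2 are given with the site in capitals.
Enkur promoter, chr2:21205316-21205615, minus strand: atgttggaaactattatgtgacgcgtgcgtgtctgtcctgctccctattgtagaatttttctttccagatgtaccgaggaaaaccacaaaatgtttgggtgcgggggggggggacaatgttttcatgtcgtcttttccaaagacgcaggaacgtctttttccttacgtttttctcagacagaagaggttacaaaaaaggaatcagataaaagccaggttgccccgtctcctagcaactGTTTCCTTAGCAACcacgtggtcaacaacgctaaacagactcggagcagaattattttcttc
Rfx2 promoter, chr17:56830959-56831258, minus strand: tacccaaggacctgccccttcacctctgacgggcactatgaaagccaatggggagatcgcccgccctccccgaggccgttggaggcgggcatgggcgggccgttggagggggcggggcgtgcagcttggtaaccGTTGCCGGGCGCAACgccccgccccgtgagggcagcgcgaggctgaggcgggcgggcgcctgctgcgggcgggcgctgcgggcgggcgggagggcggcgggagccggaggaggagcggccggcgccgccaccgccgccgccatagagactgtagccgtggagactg
The other 8 genes with a site of up to 1 mismatch were Ccdc113, Dnah9, Hydin, Ropn1l, Spag16, Spag17, Tekt2 and Tekt4.

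In sham cord the genes were low to moderate. Per kilobase of exon, Foxj1 was the most abundant at 12.5 CPM over the 6 sham libraries, ahead of Ccdc39 at 4.95, Rsph1 at 2.26, Rfx3 at 1.98 and Rsph9 at 1.87 CPM per kilobase. The longest genes were near the bottom, with Hydin at 0.184 and Dnah11 at 0.164 CPM per kilobase, and Armc4 was last at 0.104. Ccdc39, a ruler protein that spaces structures along the doublet, shares 1256 exon bases with Ttc14 on the opposite strand. The strand setting of the counting is not given in the sources used here, so reads of such partners cannot be told apart, and the level of Ccdc39 is uncertain. Dnah1 (551 bases), Dnah2 (312), Zmynd10 (214), Dnah6 (167), Ccdc114 (103) and Dnali1 (43) also share exon bases with an opposite-strand gene. So do Dnah9, Dnah10, Dnah11, Hydin, Spag6, Spag17 and Tekt2. The part of partner reads in these counts was not tested.

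**Figure D1:**
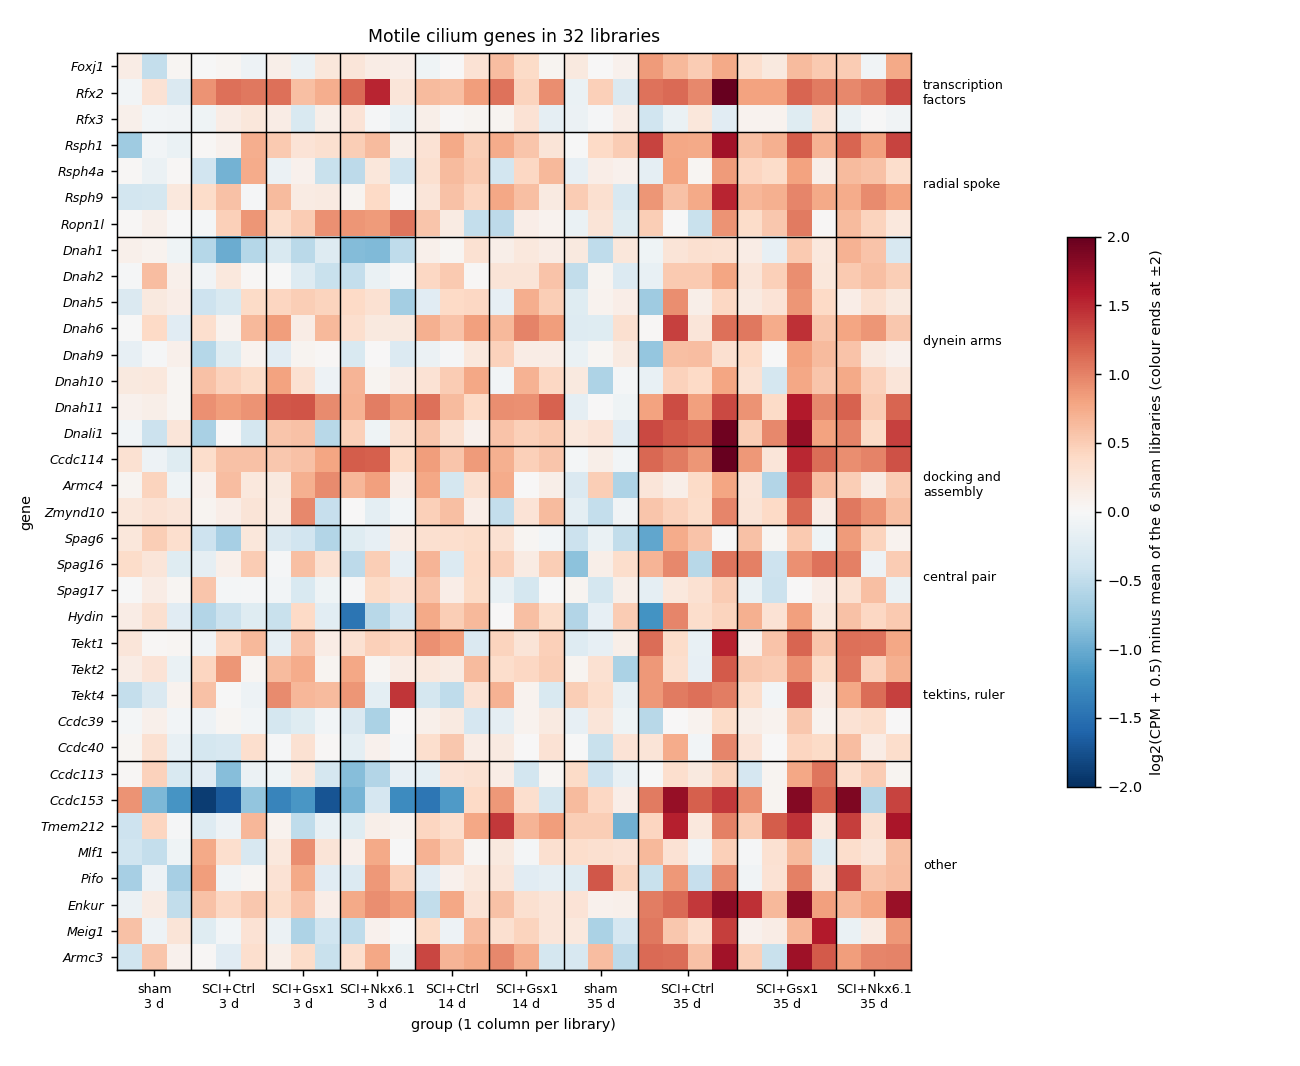
Level of each of the 35 genes (vertical axis, grouped by role) in each of the 32 libraries (horizontal axis, grouped by treatment and day), as log2(CPM + 0.5) minus the mean of the 6 sham libraries. The injured libraries of 35 days are redder than sham in most genes, and SCI+Ctrl replicate 4 and SCI+Gsx1 replicate 3 are the reddest columns.

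At 35 days the injured cord held more RNA of many motile cilium genes than sham cord. Against sham, 14 of the 35 genes rose in SCI+Ctrl and 0 fell (edgeR's quasi-likelihood test, Benjamini-Hochberg adjusted p under 0.05), where 21.3% of the 16314 genes tested rose and 15.5% fell. The fold change was above 0 on the log2 scale in 33 of the 35, with a median of 0.86 against 0.04 over all genes. In 12 of the 35 every injured library was above every sham library, which held for 20.4% of all genes. The count rests in part on single libraries. Without SCI+Ctrl replicate 4, 6 of the 35 rose (17.1%, with 14.3% of all genes), namely Foxj1, Rfx2, Dnah11, Dnali1, Ccdc114 and Enkur, with a median of 0.60. Without sham replicate 1 the count was 9, in a fit of the 2 compared groups alone 7 of 33, and among the libraries low in Xist 2 (5.71%, with 7.08% of all genes), Dnah6 and Dnah11. The share of all genes changes with the setting, so the 9 and the 7 are not to be read against 21.3%. Dnah11 rose in 14 of 14 settings, and Foxj1, Rfx2, Dnali1, Ccdc114 and Enkur in 13 of 14.

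Among the transcription factors, Foxj1, the switch for motile cilia, and Rfx2 rose at 35 days, and Rfx3 did not. Foxj1 lies at chr11:116330704-116335399 and Rfx2 at chr17:56775897-56831013 (GRCm38, both minus strand). Foxj1 was at 37.5, 32.7 and 34.4 CPM in sham and at 58.8, 51.5, 46.6 and 55.02 CPM in SCI+Ctrl. All 4 injured libraries lay above all 3 sham libraries, and the log2 fold change was 0.60, with an SE of 0.17 (edgeR adjusted p = 0.00679). Rfx2 was at 2.74, 4.41 and 2.38 CPM in sham and at 7.01, 7.22, 6.35 and 13.8 CPM in SCI+Ctrl. The groups did not overlap, replicate 4 stood above the other 3 injured libraries, and the log2 fold change was 1.43 (edgeR adjusted p = 0.000837). Without replicate 4 the Rfx2 change was 1.11, still past the threshold. Rfx3 was at 20.1, 21.4 and 24.3 CPM in sham and 16.4, 19.8, 25.6 and 18.4 CPM in SCI+Ctrl. These ranges overlapped, with a log2 fold change of -0.13 (95% interval -0.44 to 0.18).

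Of the radial spoke genes, 2 of 4 rose at 35 days. Rsph1, a protein of the spoke head, was at 2.97, 4.07 and 4.43 CPM in sham and 8.36, 5.47, 5.39 and 10.7 CPM in SCI+Ctrl. The groups did not overlap, with a log2 fold change of 0.97, with an SE of 0.27 (edgeR adjusted p = 0.00832). Rsph9, also of the spoke head, was at 4.30, 3.73 and 2.21 CPM in sham and at 5.73, 4.59, 5.24 and 9.22 CPM in SCI+Ctrl. It was higher in 4 of 4 injured libraries, with a log2 fold change of 0.86 (edgeR adjusted p = 0.0143). Without replicate 4 neither gene was called. Rsph4a (0.48) and Ropn1l (0.63) had positive log2 fold changes that did not pass the test.

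Of the dynein arm genes, 4 of 8 rose at 35 days: the outer arm heavy chain Dnah11, the inner arm heavy chains Dnah2 and Dnah6, and the inner arm light intermediate chain Dnali1. Dnah11 lies at chr12:117877982-118199043 and Dnali1 at chr4:125055338-125065703 (GRCm38, both minus strand). Dnah11 was at 2.03, 2.37 and 2.21 CPM in sham and at 4.54, 6.61, 4.57 and 6.69 CPM in SCI+Ctrl. All injured libraries were higher, with a log2 fold change of 1.34, with an SE of 0.26 (edgeR adjusted p = 0.00038). Dnah11 shares 642 exon bases with Cdca7l on the opposite strand, which was at 2.04 to 2.58 CPM in sham and 3.44 to 4.98 CPM in SCI+Ctrl at 35 days. The part of Cdca7l reads in the Dnah11 count was not tested. Dnali1 was at 2.74, 2.88 and 1.89 CPM in sham and at 6.53, 6.07, 5.75 and 10.3 CPM in SCI+Ctrl. The groups were far apart, and the log2 fold change was 1.51 (edgeR adjusted p = 0.00213). Dnah2 was at 3.68, 5.60 and 4.35 CPM in sham and 4.78, 7.90, 7.89 and 9.67 CPM in SCI+Ctrl, where replicate 1 lay within the sham range. Its log2 fold change was 0.74, and that of Dnah6 was 0.91 (edgeR adjusted p = 0.0181 and 0.0197). The other outer arm chains, Dnah5 (0.34) and Dnah9 (0.27), and the inner arm chains Dnah1 (0.21) and Dnah10 (0.58) did not pass.

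Ccdc114, part of the complex that docks outer arms on the doublet, lies at chr7:45924072-45948963 (GRCm38, plus strand). It was at 4.07, 4.58 and 4.02 CPM in sham and at 9.95, 9.11, 8.19 and 19.4 CPM in SCI+Ctrl at 35 days. The sham libraries were close together and all injured libraries lay above them. The log2 fold change was 1.46, with an SE of 0.29 (edgeR adjusted p = 0.000424), and 1.10 without replicate 4. Zmynd10, which helps to assemble dynein arms in the cytoplasm, was at 0.939, 0.678 and 1.07 CPM in sham and 1.91, 1.75, 1.62 and 2.75 CPM in SCI+Ctrl. It rose by a log2 fold change of 1.16 (edgeR adjusted p = 0.0269) and was called in 6 of 14 settings. Armc4, also of the docking complex, held at most 29 counts in any library, with an interval from -0.50 to 2.34.

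None of the 4 central pair genes passed the test at 35 days (edgeR), and 0 of them had an unadjusted p under 0.05. Their log2 fold changes were 0.39 for Hydin, 0.32 for Spag17, 0.70 for Spag6 and 1.07 for Spag16. Hydin was at 1.11, 6.75, 4.21 and 4.54 CPM in SCI+Ctrl and at 1.96, 2.80 and 4.76 CPM in sham, so replicate 1 was below sham and replicate 2 above it. A near-identical copy, Spag6l, makes the Spag6 count uncertain, and Spag17 shares 820 exon bases with Wdr3. Whether the central pair genes differ from the other roles was not tested.

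Of the tektins, filament proteins of the doublet wall, and the ruler pair Ccdc39 and Ccdc40, 1 of 5 rose at 35 days. Tekt1 was at 1.41, 1.53 and 1.97 CPM in sham and 4.46, 2.43, 1.55 and 6.097 CPM in SCI+Ctrl. Replicate 3 lay within the sham range, and the log2 fold change was 1.15 (edgeR adjusted p = 0.0245). Tekt2, Tekt4 and Ccdc40 had unadjusted p under 0.05 and adjusted p of 0.0658, 0.105 and 0.0545 (edgeR). Ccdc39 had a log2 fold change of 0.01 with an interval of -0.36 to 0.37.

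Of the remaining 8 genes, Enkur, Meig1 and Armc3 rose at 35 days. Enkur, a protein of the doublet lumen, was at 2.11, 1.78 and 1.80 CPM in sham and at 3.90, 4.25, 5.24 and 6.92 CPM in SCI+Ctrl. The groups were apart, with a log2 fold change of 1.41, with an SE of 0.35 (edgeR adjusted p = 0.00354). Meig1 rose by 1.80 on the log2 scale and Armc3 by 1.58 (edgeR adjusted p = 0.0187 and 0.0332). Both were scarce, with Meig1 at 0.170 to 0.704 CPM in sham and 0.812 to 2.23 CPM in SCI+Ctrl. Ccdc153 was apart, at 2.79 to 4.15 CPM in sham and 5.65 to 9.58 CPM in SCI+Ctrl, with a log2 fold change of 1.07 that did not pass (edgeR adjusted p = 0.175). Tmem212 (1.09), Ccdc113 (0.40), Mlf1 (0.05) and Pifo (-0.35) did not pass.

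At 3 days few of the genes had changed. In SCI+Ctrl against sham, 2 of the 35 genes rose and 1 fell, where 19.5% of all genes rose and 16.0% fell, and 8 had an unadjusted p under 0.05. The median log2 fold change was 0.11, with 20 of 35 above 0. Rfx2 was at 2.91, 3.81 and 2.39 CPM in sham and 6.12, 7.05 and 6.85 CPM in SCI+Ctrl. The groups were apart, with a log2 fold change of 1.14, with an SE of 0.32 (edgeR adjusted p = 0.00695). Dnah11 was at 2.56, 2.62 and 2.46 CPM in sham and 4.91, 4.62 and 4.85 CPM in SCI+Ctrl, and rose by 0.91 on the log2 scale (edgeR adjusted p = 0.0106). Cdca7l, its partner on the opposite strand, went from 0.781 to 1.71 CPM in sham to 4.68 to 7.40 CPM in SCI+Ctrl. Dnah1, an inner arm heavy chain, was at 8.03, 7.86 and 6.97 CPM in sham and at 4.83, 3.49 and 4.85 CPM in SCI+Ctrl. It was lower in 3 of 3 injured libraries and fell by 0.80 on the log2 scale (edgeR adjusted p = 0.0119), a call lost without SCI+Ctrl replicate 2. Foxj1 was at 36.2, 23.2 and 33.3 CPM in sham and 32.2, 33.4 and 30.3 CPM in SCI+Ctrl. Its ranges overlapped, with a log2 fold change of 0.05 (95% interval -0.31 to 0.41), which was -0.10 without sham replicate 2. Among the libraries low in Xist, 1 gene rose and 0 fell, and without sham replicate 2 or 3 or SCI+Ctrl replicate 3, 2 fell. Shares of all genes in these sets are not given here.

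Dnah1, Spag6 and Hydin were lower in every SCI+Ctrl library than in every sham library at 3 days, and 7 genes were higher in every one. Of all genes, 27.6% were apart downward and 28.0% upward. Ccdc153 was at 5.11, 1.11 and 0.820 CPM in sham and 0.302, 0.437 and 1.23 CPM in SCI+Ctrl. The first sham library was above the other 5, it is the one with both Xist and Ddx3y, and the log2 fold change of -1.85 did not pass (edgeR adjusted p = 0.0585). Pifo had 3 counts in the 3 sham libraries together, so no fold change is given for it.

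Over time in SCI+Ctrl cord, 6 of the 35 genes rose from 3 to 35 days and 0 fell, where 5.04% of all genes rose and 5.97% fell. The 6 were Dnali1, Ccdc153, Foxj1, Dnah1, Rsph1 and Ccdc114. The median log2 change was 0.57 over the 35 genes and 0.03 over all genes, with 32 of 35 above 0. Ccdc153, a marker of ependymal cells, had the largest change, 3.47, with an SE of 0.73 (edgeR adjusted p = 0.00298). It was at 0.601, 0.867 and 3.43 CPM at 14 days, where 1 library lay within the range of sham at 35 days, and at 5.65, 9.58, 6.35 and 7.51 CPM at 35 days. Dnali1 went from 1.28, 2.31 and 1.69 CPM at 3 days to 3.60, 3.00 and 2.47 CPM at 14 days and to 5.75 to 10.3 CPM at 35 days. No library of one time overlapped with the next, and the change from 3 to 35 days was 2.01 on the log2 scale (edgeR adjusted p = 0.00078). Foxj1 was at 30.6, 32.7 and 39.6 CPM at 14 days, near its 3 day level, and the change from 3 to 35 days was 0.73 (edgeR adjusted p = 0.00534). A fit of those 2 groups alone called 3 genes, and the libraries low in Xist called 1. These counts are not to be read against 5.04%, since the share of all genes changes with the setting.

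The steps between were smaller. From 3 to 14 days Dnah1 alone rose, by 0.93 on the log2 scale (edgeR adjusted p = 0.0312), where 0.644% of all genes rose and 2.42% fell, and the call was lost whichever library was left out. Dnah1 was at 8.06, 7.67 and 9.34 CPM at 14 days, and the last of these was above all 6 sham libraries. From 14 to 35 days edgeR called 0 of the 35, where 0.858% of all genes rose and 0.466% fell. In that step 9 had an unadjusted p under 0.05, the smallest edgeR adjusted p was 0.0526, for Foxj1, and DESeq2 called 5. Without SCI+Ctrl replicate 2 of 35 days edgeR called 5, without replicate 3 of 35 days 2, and without replicate 3 of 14 days 1. Shares of all genes in these sets are not given here. In sham cord 0 of the 35 passed between 3 and 35 days (edgeR, where 0.0% of all genes rose and 0.00613% fell), 5 had an unadjusted p under 0.05, and the median change was -0.04. Whether the effect of injury itself differed between 3 and 35 days was tested as an interaction. It gave 0 calls among the 35 (0.178% of all genes were called upward and 0.184% downward), with 10 at an unadjusted p under 0.05, and DESeq2 gave 0. The difference was above 0 in 31 of 35 with a median of 0.57, and the smallest edgeR adjusted p was 0.139, for Dnali1 (1.83 ± 0.52, SE).

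**Figure D2:**
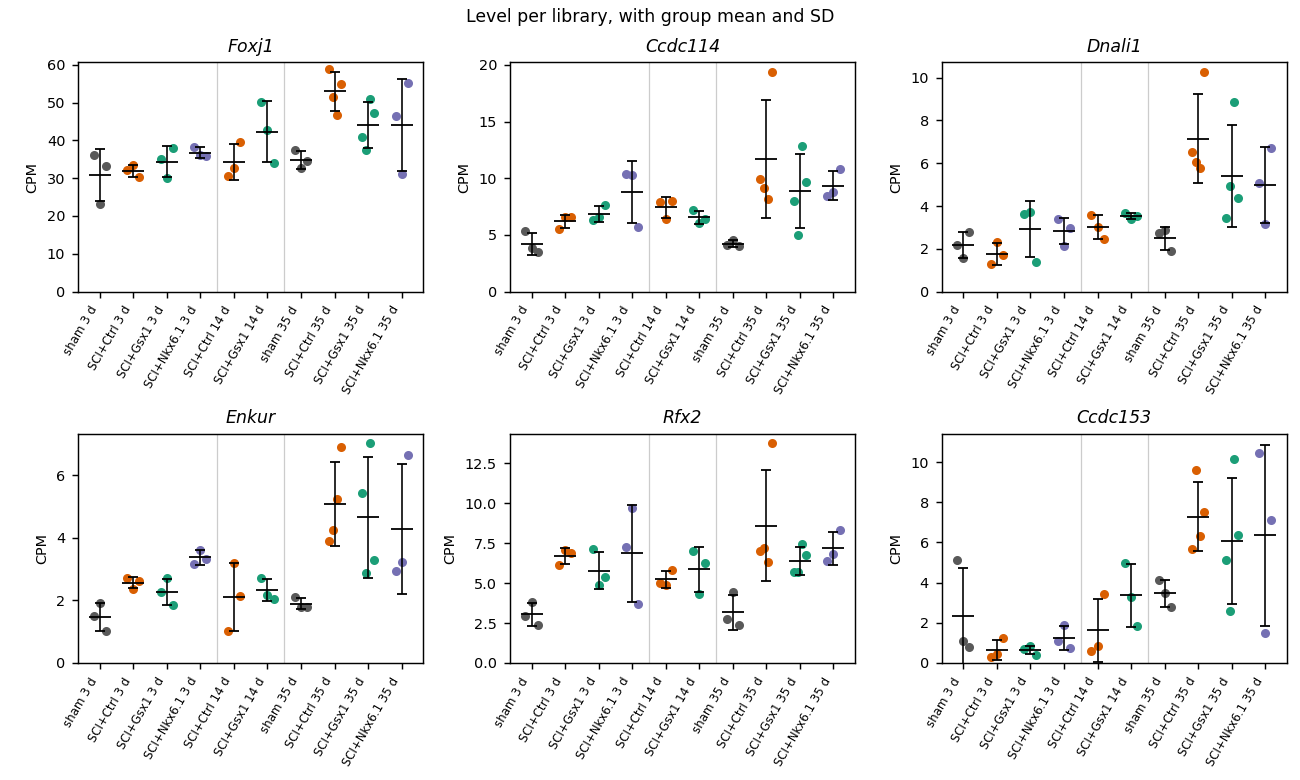
CPM (vertical axis) of Foxj1, Ccdc114, Dnali1, Enkur, Rfx2 and Ccdc153 in each library (points) of the 10 groups (horizontal axis), with the group mean and SD. Foxj1, Dnali1 and Ccdc153 in SCI+Ctrl are higher at 35 days than at 3 days, while Rfx2 is already above sham at 3 days.

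Cord labelled SCI+Gsx1 and SCI+Nkx6.1 was set against the same sham libraries. At 35 days 7 of the 35 rose in SCI+Gsx1 against sham (8.63% of all genes rose) and 5 in SCI+Nkx6.1 (6.37%). In either 0 fell, where 1.17% and 0.821% of all genes fell. Every injured library was above every sham library in 13 and 18 of the 35, against 18.8% and 17.9% of all genes. The 7 were Dnah11, Ccdc114, Dnah6, Enkur, Rfx2, Dnah2 and Dnali1, and the 5 were Dnah11, Ccdc114, Rfx2, Zmynd10 and Dnah2. The log2 fold change was above 0 in 32 and 34 of the 35, with medians of 0.78 and 0.85. Dnah11 was at 4.88, 3.26, 8.12 and 5.10 CPM in SCI+Gsx1 and 5.98, 3.58 and 5.96 CPM in SCI+Nkx6.1. Every one of these was above sham, with log2 fold changes of 1.28 and 1.23 (edgeR adjusted p = 0.00172 and 0.00449). Ccdc114 was at 8.03, 5.03, 12.8 and 9.64 CPM in SCI+Gsx1 and at 8.40, 8.81 and 10.8 CPM in SCI+Nkx6.1, also above all sham libraries. The 3 comparisons with sham at 35 days share their sham libraries, and Ccdc114, Dnah11, Dnah2 and Rfx2 were called in each. Leaving out SCI+Gsx1 replicate 3 left 1 call of the 7, leaving out sham replicate 1, 2 or 3 left 2, 4 and 2, and the libraries low in Xist gave 3. For SCI+Nkx6.1, leaving out its replicate 3, sham replicate 1 or sham replicate 3 left 1, and the libraries low in Xist gave 3. The 8.63% and 6.37% of all genes do not apply to these sets, whose own shares are not given here.

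At 3 days 5 genes rose in SCI+Gsx1 against sham (20.3% of all genes) and 0 fell (17.4%), and 8 rose (27.9%) and 1 fell (26.4%) in SCI+Nkx6.1. Dnah11, Rfx2, Tekt4 and Rsph1 rose in both. Mlf1 rose in SCI+Gsx1. Ccdc114, Enkur, Ropn1l and Pifo rose in SCI+Nkx6.1, where Dnah1 fell by 0.84 on the log2 scale (edgeR adjusted p = 0.00458). Pifo was scarce, at 0 to 0.238 CPM in sham and 0.154 to 0.940 CPM in SCI+Nkx6.1, so its ranges overlapped. Dnah1 was at 3.85, 3.83 and 5.06 CPM in SCI+Nkx6.1 and 5.94, 4.98 and 6.12 CPM in SCI+Gsx1, all below the sham libraries. Without sham replicate 1 the counts that rose were 2 and 4. Without SCI+Gsx1 replicate 1 or 2 the first was 2, and without sham replicate 3 or SCI+Nkx6.1 replicate 2 the second was 5. Without SCI+Nkx6.1 replicate 3, 3 genes fell. Shares of all genes in these sets are not given here.

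Between the injured cords, no motile cilium gene passed the test. In SCI+Gsx1 against SCI+Ctrl at 3, 14 and 35 days and in SCI+Nkx6.1 against SCI+Ctrl at 3 and 35 days, edgeR called 0 of the 35 and DESeq2 called 0. An unadjusted p under 0.05 was found for 0, 1, 0, 0 and 0 genes in that order. Few genes of any kind were called: 0.0% in each direction in 4 of the 5 comparisons, and 0.147% upward and 0.19% downward in SCI+Nkx6.1 at 3 days. The median log2 fold change of the 35 was 0.08, 0.03, -0.06, 0.03 and 0.05. These misses do not show that the cords were alike, and since the levels of Gsx1 and Nkx6-1 did not check the labels, the groups are named as labelled. At 35 days 24 of the 35 intervals lay within a log2 change of 1 either way for SCI+Gsx1 and 23 for SCI+Nkx6.1, and the rest allowed larger changes. Foxj1 was at 41.0, 37.3, 51.0 and 47.1 CPM in SCI+Gsx1 and 46.3, 31.1 and 55.1 CPM in SCI+Nkx6.1 at 35 days. Both overlapped with SCI+Ctrl, with log2 fold changes of -0.26 (95% interval -0.57 to 0.04) and -0.26 (95% interval -0.59 to 0.07). At 14 days Foxj1 was at 50.1, 42.7 and 33.9 CPM in SCI+Gsx1, a log2 change of 0.30 (95% interval -0.06 to 0.66). Rfx2 at 35 days had log2 changes of -0.42 (95% interval -0.96 to 0.11) and -0.26 (95% interval -0.84 to 0.32), and Rfx3 of 0.18 and 0.05.

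**Figure D3:**
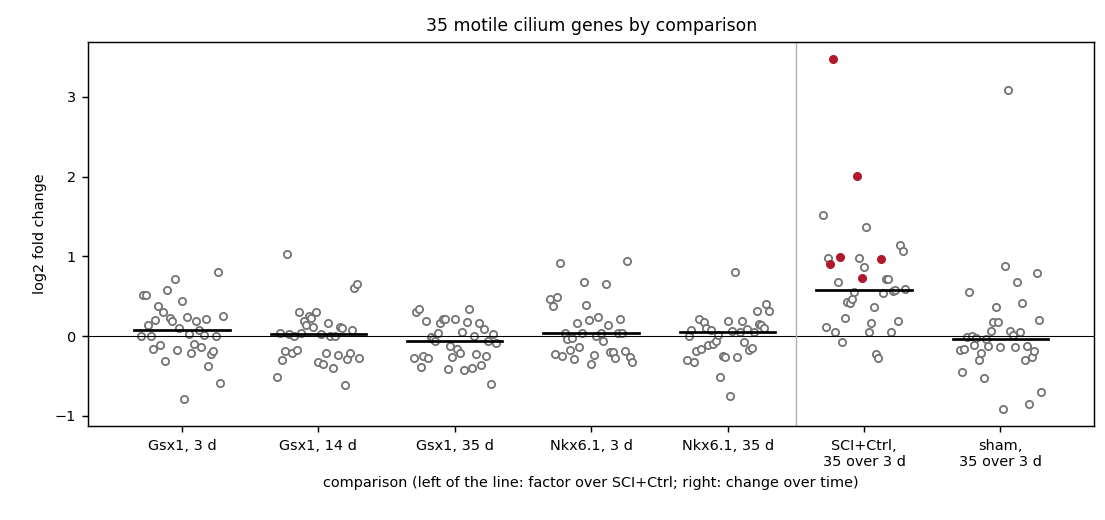
Log2 fold change (vertical axis) of each of the 35 genes (points) in the 5 comparisons of SCI+Gsx1 or SCI+Nkx6.1 with SCI+Ctrl and in the change from 3 to 35 days within SCI+Ctrl and within sham (horizontal axis), with the median as a bar. The 6 filled red points passed edgeR's test, all in SCI+Ctrl over time, where the median is 0.57.

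At 35 days 1 library in each of 2 groups stood above the others. SCI+Ctrl replicate 4 was above its group mean in 33 of the 35 genes, by a median of 0.41 on the log2(CPM + 0.5) scale, and was the highest of its group in 23. SCI+Gsx1 replicate 3 was above its group mean in 34, by 0.45, and the highest in 29. Summed over the 35 genes these libraries held 312 and 305 CPM, where sham at 35 days held 170 to 179 CPM. The lowest injured library of 35 days, SCI+Gsx1 replicate 2, held 201 CPM and was still above all sham libraries. Much of that sum was Foxj1, Ccdc39 and Rfx3, at 37.3, 38.4 and 23.0 CPM in that library. Each of these lay within its range in sham at 35 days, 32.7 to 37.5 CPM for Foxj1, 32.8 to 43.3 for Ccdc39 and 20.1 to 24.3 for Rfx3. Most of the excess of that library over sham therefore lay in the other, scarcer genes of the set. The sum does not show which of them differed. In SCI+Ctrl replicate 4 the median marker of meningeal fibroblasts was 1.73 above the group mean on the log2 scale, that of Schwann cells 1.34, that of choroid plexus 0.82 and that of neurons -0.67. In SCI+Gsx1 replicate 3 the same medians were -0.70, -0.77, -0.53 and 0.03. Other lists were above the group mean in both libraries: ependymal genes outside the axoneme by medians of 0.41 and 0.24, further axonemal genes by 0.33 and 0.31, and macrophage markers by 0.56 and 0.18. The part of these cell types in the result was not tested. Choroid plexus also has ciliated cells: its 10 markers summed to 9.16 to 13.6 CPM in sham and 9.87 to 34.8 CPM in SCI+Ctrl at 35 days, and 3 of the 7 tested rose. Among the 10, Ttr was at 0 to 0.744 CPM in SCI+Ctrl at 35 days and Otx2 at 0 in all 14 libraries of that day. These markers were scarce, and the part of choroid plexus in the result was not tested. The 10 meningeal markers all rose, from 557 to 610 CPM summed in sham to 989 to 5026 CPM in SCI+Ctrl, and 9 of 12 neuronal markers fell, from 11870 to 12226 CPM to 4277 to 8557 CPM.

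**Figure D4:**
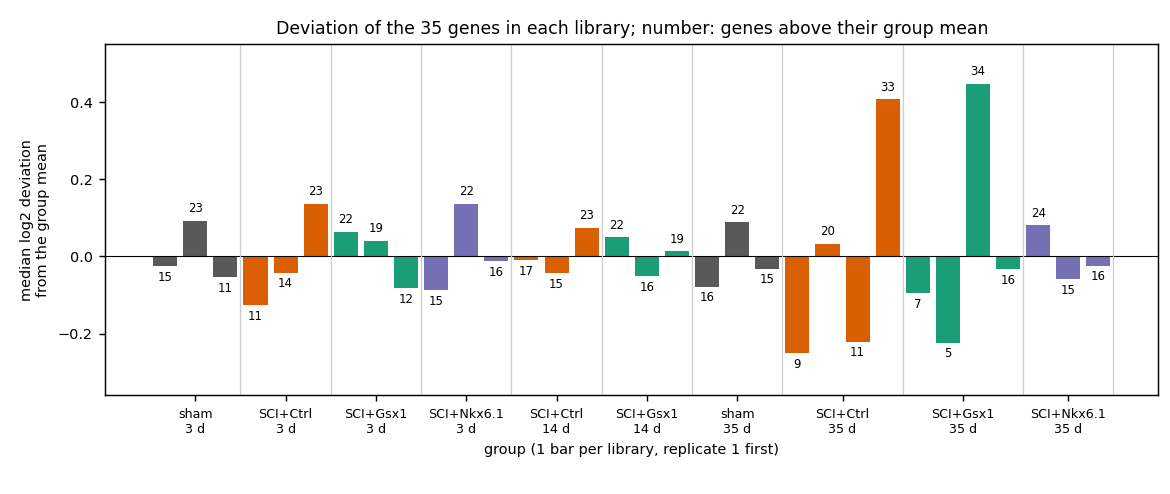
Median deviation of the 35 genes from their group mean in each library (vertical axis, log2(CPM + 0.5)), with libraries grouped by treatment and day (horizontal axis) and the number of genes above the group mean printed at each bar. The tallest bars are SCI+Ctrl replicate 4 (0.41) and SCI+Gsx1 replicate 3 (0.45) at 35 days.

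Genes of cilia outside the set were counted by list, to be read against the 21.3% of all genes that rose and the 15.5% that fell at 35 days. Of 73 further axonemal genes tested at 35 days, 21 rose (28.8%) and 1 fell, with a median log2 fold change of 0.50. The 2 with the smallest p were Capsl (3.99 ± 0.55, SE) and Ccdc135 (2.08). Without SCI+Ctrl replicate 4, 9 rose, without sham replicate 2 or 3, 12 and 10, and in a fit of the compared groups alone, 5 of 68. The share of all genes changes with the setting, and was lower without SCI+Ctrl replicate 4, as given above. Counts from other settings here are therefore not to be read against 21.3% or 15.5%. Of the 30 genes of intraflagellar transport, the train system that builds both motile and primary cilia, 0 rose and 3 fell (10.0%), with a median of -0.10. Kifap3 (-0.70 ± 0.18, SE) and Kif3a (-0.34), both of the kinesin that pulls the trains, were among them, and in sets without 1 library the number that fell ran down to 1, without SCI+Ctrl replicate 4, and up to 7, without SCI+Ctrl replicate 2. In a fit of the compared groups alone, and among the libraries low in Xist, 0 fell. Of 26 genes of the primary cilium and BBSome, 4 rose (15.4%) and 2 fell (7.69%). Of 14 genes of the multiciliation programme 4 rose (28.6%), among them Rfx1 (0.59) and Rfx4 (0.43), and of 13 dynein assembly factors 3 rose (23.1%), Dnaaf3 among them (1.46), and 2 fell (15.4%). The share that rose was 28.8% for further axonemal genes, 28.6% for the multiciliation programme and 23.1% for assembly factors. These shares were near the 21.3% of all genes.

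Of 19 ependymal genes outside the axoneme, 8 rose at 3 days (42.1%) and 12 at 35 days (63.2%), and 0 fell, with Vim (3.96 and 3.76) leading at both times. The 12 calls at 35 days stayed 12 without SCI+Ctrl replicate 4 and were 7 among libraries low in Xist. In both sets the share of all genes that rose was lower too. Vim, Sox9, Sox2, Gja1 and Nes are also expressed by astrocytes or by other cells of injured cord, and Gfap, an astrocyte filament gene, rose by 2.08. At 3 days, when 19.5% of all genes rose and 16.0% fell, 0 genes of intraflagellar transport rose and 6 fell (20.0%), the latter near the share of all genes that fell. Of the further axonemal genes 2 rose (2.74%) and 6 fell (8.22%), both below the shares of all genes. Without SCI+Ctrl replicate 1 or 3, or without sham replicate 2, 3 transport genes fell, and without SCI+Ctrl replicate 1 or sham replicate 1, 3 of the axonemal genes. Shares of all genes in these sets are not given here.

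The genes were also counted by exon length. At 35 days 9 of 17 members under 3000 exon bases rose (23.5% of all genes of that length), 2 of 9 from 3000 to under 10000 bases (21.5%), and 3 of 9 of 10000 bases or more (13.4%). Their median log2 fold changes were 1.04, 0.70 and 0.39, and those of all genes 0.19, 0.01 and -0.14. The part of length in the result was not tested. Of the 13 genes with an X-box of up to 1 mismatch, 3 rose at 35 days, with a median of 0.87. That share was near the 21.3% of all genes that rose. Of the 18 with a window and no such match, 9 rose, with a median of 0.80. A link between the X-box and the rise was not tested.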

How the data were processed

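Raw counts per gene symbol were deposited by the authors in 1 table of 32 libraries, of which 0 value columns lacked a sample. HISAT2, SAMtools, HTSeq and DESeq2, and the builds mm10 and GRCm38, are named per the submitters' processing notes, without roles. For the annotation, the strand setting and reads that map to several places, the sources used here give nothing.

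The counts were fitted here with edgeR 4.0.16 in R 4.3.3: low counts filtered (minimum 10, total 15), 16314 genes kept, TMM scaling, 1 model over 10 groups with 22 residual degrees of freedom, quasi-likelihood tests and Benjamini-Hochberg adjustment over all genes. Intervals are 95%. CPM was computed with TMM-scaled library sizes. Alternatives were DESeq2 1.42.0, RLE scaling, no filter, a replicate block, the compared groups alone, each library left out, sets without libraries of mixed sex markers or high Xist, and, chosen after seeing the data, an X-box search with 1 mismatch. Nothing in the labels ties each library to its own animal, and the p-values therefore reflect variation among these libraries, which may be technical.

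The genes and lists were chosen with earlier results of these data known. The genes named were Foxj1, Rfx2 and Rfx3, per comparison the 6 called with the smallest p, and every called gene whose groups did not overlap with a mean CPM of at least 1, up to 12, and 2 per other list. Others named were chosen after their values were seen. Older symbols were matched through RefSeq, gene coordinates are from GENCODE M21, and promoters from RefSeq. Tested on simulated data for SCI+Ctrl against sham at 35 days over 16314 genes, the test recovered 61.0% of genes changed by a log2 fold of 1 and 83.0% at 2, with 4 false calls of 148. There, 100 genes were changed at each fold, drawn at random over all levels, with noise independent between genes. In the data far more genes were called and whole libraries deviated together, so these rates may not hold for the 35 genes.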

Additional observations from a re-analysis of the deposited data

Results flagged for a closer look

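Each of the 35 genes and their sum was looked at in both groups of 4 libraries. Of these 72 sets 5 had a library farther from the rest than Dixon's 95% limit, and chance gives about 1 in 20. Rfx2 was at 13.76 CPM in SCI+Ctrl replicate 4 at 35 days, with the other 3 at 6.345 to 7.222 CPM. Ccdc114 was at 19.41 CPM in the same library, with the others at 8.19 to 9.951 CPM. Dnah1 was lowest in SCI+Ctrl replicate 1 at 35 days, at 7.006 CPM against 9.044 to 9.444 CPM. In SCI+Gsx1 replicate 3 at 35 days, Rsph1 was at 7.573 CPM against 4.776 to 5.212 CPM, and Ccdc39 at 53.25 CPM against 38.35 to 39.63 CPM.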

How the results depend on the processing

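Numbers of genes called, of 35, are given for SCI+Ctrl against sham unless another pair is named. The share of all genes called also changes with each setting and is not repeated here, so these counts show no excess by themselves. Left-out libraries gave 2 to 3 higher and 0 to 2 lower at 3 days, and 6 to 16 higher at 35 days. For SCI+Gsx1 against sham they gave 2 to 5 higher and 0 to 1 lower at 3 days and 1 to 7 higher at 35 days, and for SCI+Nkx6.1 4 to 7 higher and 1 to 3 lower at 3 days and 1 to 6 higher at 35 days. Within SCI+Ctrl they gave 0 from 3 to 14 days, 0 to 5 from 14 to 35 days and 4 to 7 from 3 to 35 days. Libraries low in Xist, which are fewer, gave 1 higher and 0 lower at 3 days and 2 higher at 35 days, 2 and 3 higher for SCI+Gsx1, 3 higher and 0 lower and then 3 higher for SCI+Nkx6.1, and 0 from 3 to 14 and 1 from 3 to 35 days. Without the 2 libraries of mixed sex markers, 7 were higher at 35 days, 3 for SCI+Gsx1 at 3 days, and 4 and 8 for SCI+Nkx6.1. The compared groups alone gave 7 at 35 days, 1 lower for SCI+Gsx1 and 5 higher for SCI+Nkx6.1 at 3 days, 2 from 3 to 14 and 3 from 3 to 35 days. DESeq2 gave 2 lower at 3 days for SCI+Ctrl and for SCI+Gsx1, 8 higher for SCI+Nkx6.1 at 35 days, and 5 from 14 to 35 days. The X-box search gave 13 genes with up to 1 mismatch. Foxj1 at 3 days turned to -0.0391 with libraries low in Xist and -0.1012 without sham replicate 2, against 0.1772 without sham replicate 1, and Rfx3 at 35 days to 0.1461 with libraries low in Xist. The cause was not tested.

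With the replicate number as a block, 11 genes were higher at 35 days and 2 higher and 1 lower at 3 days. For SCI+Gsx1 the block gave 4 higher at each time, for SCI+Nkx6.1 8 higher and 2 lower and then 5 higher, and for 3 to 35 days 4. Libraries of the same number in different groups had a median correlation of deviations of 0.008, and those of different numbers -0.010. Single pairs ran from -0.60 to 0.48 and from -0.59 to 0.54. A median over all pairs cannot show whether libraries of the same number shared a batch, and the labels do not say.

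Depth limits the scarce genes: at 35 days Armc4 held at most 29 counts in a library and Meig1 48, and their intervals span more than a log2 change of 2.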
